A study of Rattus norvegicus with 9 samples.

Results

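The platelet-derived growth factor (PDGF) family comprises the ligand genes Pdgfa, Pdgfb, Pdgfc and Pdgfd and the receptor genes Pdgfra and Pdgfrb. These 6 genes were followed in smooth muscle cells of the rat pulmonary artery (PASMCs), which form the muscular wall of the lung vessels. They were found by the name or transcript annotation of each array probe, and were carried by 7 of the 41012 probes that are not controls. The 41012 probes stood for 35066 distinct names in all, and 19262 of the probes matched no entry of a gene table and kept the name in the files. The design compared normoxia, hypoxia and hypoxia with quercetin, a plant flavonol, with 3 arrays in each group. All cells came from male SD rats, were labelled as culture generation 4, spent 24 h without serum and were then kept 24 h in medium with 10% serum. Hypoxia was a sealed chamber with 1% O2 and 5% CO2, and controls stood in a normoxic incubator at 37 °C. Cells received quercetin, at a dose not given in the sources used here, or 0.1% DMSO, a common solvent. The groups therefore describe passaged cells in serum and not an intact vessel. The labels do not say whether the 3 arrays of a group came from separate cultures or animals, so the p-values rest on a spread between arrays that may be technical.

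PDGF ligands are secreted as dimers and act on a pair of receptor tyrosine kinases, PDGF receptor alpha (Pdgfra) and PDGF receptor beta (Pdgfrb). The A and B chains are cut inside the cell by proprotein convertases, while the C and D chains leave the cell in a latent form and are cut outside it by proteases such as plasminogen activators. PDGF receptor alpha binds the A, B and C chains, and PDGF receptor beta binds chiefly the B and D chains. In pulmonary artery smooth muscle the pathway is known for driving proliferation and migration and for lowering contractile genes.

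Signal is given here as a level, the log2 of the background-subtracted intensity minus the 75th percentile of that array, so a level of 0 equals that percentile. A change is a difference between 2 mean levels, also in log2 units. Between 53.4% and 74.7% of spots on an array were well above background, and the 75th percentile was 627 to 640 intensity units on normoxia arrays, 439 to 462 on hypoxia arrays and 450 to 504 on quercetin arrays. Correlations between arrays of a group were 0.986 to 0.9944. Normoxia replicates 1 and 2 lay on a slide and scan day of their own, normoxia replicate 3 shared its slide with the hypoxia arrays, and the quercetin arrays filled another slide. Slide and quercetin can thus not be told apart. Smooth muscle markers were present: Cnn1 (calponin) read 3580 to 4890 intensity units in normoxia and Tagln (transgelin) 74900 to 114000, while Acta2 had no probe of that name. The endothelial markers Pecam1, Cldn5, Emcn and Tek, the epithelial markers Epcam, Cdh1 and Krt19 and the leukocyte markers Cd3e and Itgam were well above background on no array. Other markers of those cells, namely Cdh5 and Kdr (endothelial), Krt7, Krt8, Krt18 and Scgb1a1 (epithelial) and Ptprc, Cd68, Lyz2, Cd74 and Csf1r (leukocyte), were well above background on all 3 normoxia arrays. Of 9 fibroblast markers, 7 were measured. In such bulk RNA, fewer cells that express a gene and less RNA per cell cannot be told apart.

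The probes are 60 bases long and each is the only reading of its gene, except for Pdgfd, which had a pair. The 4 ligand probes below show what was hybridised, because the A and B chains, and the C and D chains, are related in sequence. Capitals mark the longest run shared by the Pdgfa and Pdgfb probes (8 bases) and by the Pdgfc and Pdgfd probes (5 bases).
Pdgfa: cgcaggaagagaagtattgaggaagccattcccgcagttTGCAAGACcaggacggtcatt
Pdgfb: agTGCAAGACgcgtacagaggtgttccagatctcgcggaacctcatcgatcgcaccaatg
Pdgfc: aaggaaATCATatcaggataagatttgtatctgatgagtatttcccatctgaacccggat
Pdgfd: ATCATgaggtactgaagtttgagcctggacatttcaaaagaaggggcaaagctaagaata
In rat genome build rn4, the array annotation placed the Pdgfa probe at chr12:16160668-16162882 on the plus strand, the Pdgfb probe at chr7:118249590-118249649 on the minus strand and the Pdgfc probe at chr2:172768629-172768688 on the plus strand. The printed Pdgfd probe lay at chr8:3326433-3341113 and the other at chr8:3341187-3341246, both on the plus strand. The Pdgfra probe lay at chr14:35369708-35369767 on the minus strand and the Pdgfrb probe at chr18:57053405-57053464 on the plus strand. The Pdgfa probe and the printed Pdgfd probe each cross an intron, since their 60 bases span 2215 and 14681 bases of genome. The probes began at base 732 (Pdgfa), 681 (Pdgfb), 406 (Pdgfc), 1095 and 1228 (Pdgfd), 6169 (Pdgfra) and 5190 (Pdgfrb) of the annotated transcripts. An annotation of build rn4 was not used here, so coding and untranslated parts are not given. The GC content of the probes was 51.7% and 55.0% for Pdgfa and Pdgfb and 36.7% to 41.7% for the others, and levels are therefore compared between groups for 1 probe, and a difference between probes is read only for how it moves between groups.

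**Figure D1:**
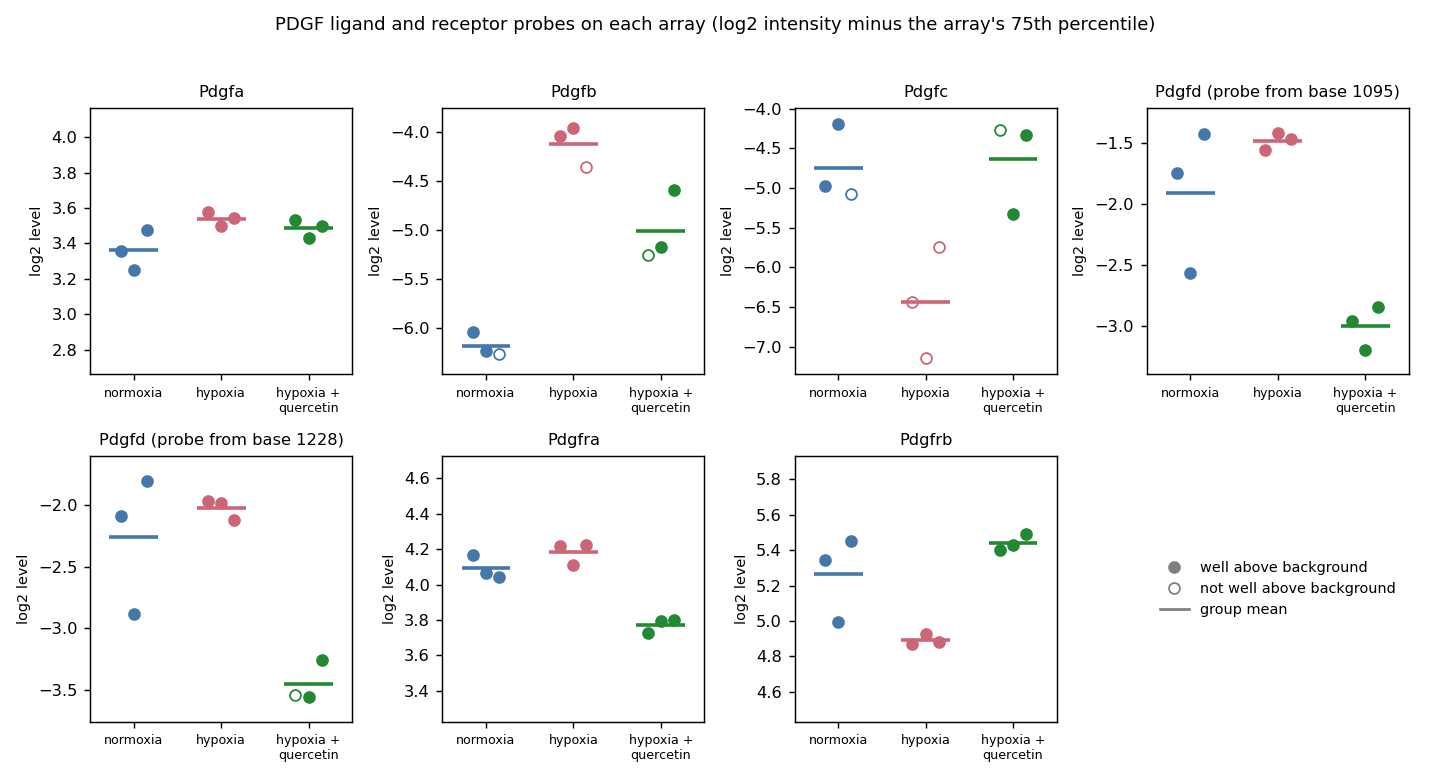
Level of each PDGF probe on each array (vertical axes, log2 intensity minus the array's 75th percentile) in the 3 groups, with 1 point per array and a line at the group mean. Pdgfa and both receptors were well above background on every array (filled points), whereas Pdgfb, Pdgfc and 1 quercetin array of the second Pdgfd probe had open points, which are arrays not well above background.

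Pdgfa, which encodes the A chain, a ligand of PDGF receptor alpha, was bright and nearly level across the groups. Its level was 3.36, 3.25 and 3.47 on the normoxia arrays, 3.58, 3.50 and 3.54 on the hypoxia arrays and 3.53, 3.43 and 3.50 with quercetin. All hypoxia arrays lay above all normoxia arrays, and the quercetin arrays overlapped both. The change was 0.18 ± 0.09 (SE, n = 3 a group) in hypoxia against normoxia (95% interval -0.02 to 0.38, limma adjusted p = 0.098), and it turned to -0.33 (adjusted p = 0.033) when arrays were scaled on 8 labelling spike-in probes instead. Quercetin against hypoxia gave -0.05 (interval -0.25 to 0.14, adjusted p = 0.62) and quercetin against normoxia 0.13 (adjusted p = 0.27), neither past the threshold of 0.05. Without normoxia replicate 3 the hypoxia change was 0.24 with an adjusted p of 0.046.

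Pdgfb, which encodes the B chain, a ligand of both receptors, was dim, with levels that followed the order normoxia, quercetin, hypoxia. The level was -6.04, -6.24 and -6.26 in normoxia, -4.04, -3.96 and -4.36 in hypoxia and -5.25, -5.18 and -4.60 with quercetin. These levels stood for intensities of 7.62 to 9.12, 19.9 to 27.8 and 11.7 to 19.5 units, and 2 of 3 arrays in each group were well above background. No pair of groups overlapped. Among genes of the main test, groups did not overlap for 71.7% in hypoxia against normoxia. The shares were 71.1% in quercetin against hypoxia and 53.6% in quercetin against normoxia. The Pdgfb probe failed the filter of being well above background on all 3 arrays of a group, so it was left out of that test. The difference was 2.06 (4.16-fold) for hypoxia against normoxia, -0.89 for quercetin against hypoxia (0.541 of the hypoxia signal) and 1.17 for quercetin against normoxia. With no filter limma gave adjusted p-values of 0.00025, 0.013 and 0.0057 for these. Another background correction (normexp with an offset of 50) shrank the 3 differences to 0.20, 0.22 and 0.42 and so turned the sign of quercetin against hypoxia. Platelet markers, of interest because platelets are rich in PDGF, were summed over the 5 of 6 that were on the array. Sums were 0.173 to 0.286 of the 75th percentile on normoxia arrays, 0.383 to 0.433 on hypoxia arrays and 0.211 to 0.297 on quercetin arrays. Pf4 was well above background only on 1 quercetin array, and Ppbp only on 2 normoxia arrays. Gp9 alone was so on all 3 arrays of each group. Its intensity was 95.2 to 106 units on hypoxia arrays, against 44.5 to 86.7 on normoxia arrays and 40.9 to 51.7 on quercetin arrays. Whether the sums reflect platelet RNA, and the part of these markers in the Pdgfb levels, was not tested.

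Pdgfc, which encodes a latent ligand that acts through PDGF receptor alpha, was at the limit of detection. The level was -4.98, -4.20 and -5.07 in normoxia, -6.44, -7.15 and -5.74 in hypoxia and -4.27, -5.32 and -4.33 with quercetin. Every hypoxia array lay below every array of the other groups, while normoxia and quercetin overlapped. Among genes of the main test, hypoxia did not overlap normoxia for 71.7% and did not overlap quercetin for 71.1%. Pdgfc was well above background on 2 normoxia arrays, 0 hypoxia arrays and 2 quercetin arrays, and was not in the main test. Against the lowest signal well above background on each hypoxia array, mean Pdgfc was 1.05-fold higher in normoxia and 1.13-fold higher with quercetin. These folds are not lower bounds, since normoxia replicate 3 and quercetin replicate 1 were not well above background either. The measured means, -6.44 in hypoxia against -4.75 and -4.64 in the other groups, differed by more, and with no filter limma gave adjusted p-values of 0.021 and 0.019 for these comparisons and 0.88 for quercetin against normoxia.

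Pdgfd, which encodes a latent ligand that acts mainly through PDGF receptor beta, fell with quercetin. The level of the probe that crosses an intron was -1.75, -2.57 and -1.43 in normoxia, -1.56, -1.42 and -1.47 in hypoxia and -2.96, -3.19 and -2.85 with quercetin. Every quercetin array lay below every other array, and the normoxia arrays spread around the hypoxia arrays, with replicate 2 the lowest. Pdgfd fell by 1.52 ± 0.26 (SE, n = 3 a group) with quercetin against hypoxia (interval -2.11 to -0.93, limma adjusted p = 0.0012), to 0.349 of the hypoxia signal. It fell by 1.09 against normoxia (interval -1.67 to -0.50, adjusted p = 0.0092). The second Pdgfd probe read -3.54, -3.56 and -3.25 with quercetin against -1.97, -1.99 and -2.13 in hypoxia and -2.09, -2.88 and -1.81 in normoxia, and changed by -1.42 (adjusted p = 0.0014) against hypoxia and -1.19 (adjusted p = 0.0049) against normoxia. Hypoxia against normoxia gave 0.43 ± 0.26 (interval -0.15 to 1.02, adjusted p = 0.17), and -0.071 with spike-in scaling. Without normoxia replicate 3 that change was 0.68 with an adjusted p of 0.034. Under normexp correction the changes with quercetin were -0.62 and -0.47, with adjusted p-values of 0.098 and 0.28.

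Pdgfra, the receptor for the A, B and C chains, was bright and lowest with quercetin. The level was 4.17, 4.06 and 4.05 in normoxia, 4.22, 4.11 and 4.23 in hypoxia and 3.73, 3.79 and 3.80 with quercetin. The quercetin arrays lay below the other 6, and normoxia and hypoxia overlapped. Pdgfra fell by 0.41 ± 0.08 (SE, n = 3 a group) with quercetin against hypoxia (interval -0.59 to -0.23, limma adjusted p = 0.0024), to 0.751 of the hypoxia signal, and fell by 0.32 ± 0.08 against normoxia (interval -0.50 to -0.14, adjusted p = 0.012). Hypoxia against normoxia gave 0.09 ± 0.08 (interval -0.09 to 0.27, adjusted p = 0.33), which became -0.08 (adjusted p = 0.34) with quantile normalisation and -0.41 (adjusted p = 0.007) with spike-in scaling. The change against normoxia was -0.27 (adjusted p = 0.11) with scan day as a block and -0.39 (adjusted p = 0.17) with normexp correction. Of the 7 measured markers of fibroblasts, the mesenchymal cells best known for Pdgfra, 0 rose and 4 fell with quercetin against hypoxia, with a median of -0.50. In hypoxia 2 rose and 4 fell (median -1.45), and with quercetin against normoxia 1 rose and 5 fell (median -3.14). Over all genes, 26.9% rose and 31.5% fell with quercetin against hypoxia. The shares were 35.3% and 28.9% in hypoxia and 23% and 21.3% with quercetin against normoxia. The summed signal of the fibroblast markers was 823 to 880 times the 75th percentile on normoxia arrays. It was 1190 to 1290 on hypoxia arrays and 798 to 946 on quercetin arrays, and most of it came from the collagens Col1a1 and Col3a1. Their part in the Pdgfra fall was not tested.

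Pdgfrb, the receptor for the B and D chains and a classical gene of smooth muscle and pericytes, fell in hypoxia and rose with quercetin. The level was 5.35, 4.99 and 5.45 in normoxia, 4.87, 4.93 and 4.88 in hypoxia and 5.40, 5.43 and 5.49 with quercetin. The hypoxia arrays lay below the other 6, and normoxia overlapped quercetin. Pdgfrb fell by 0.37 ± 0.12 (SE, n = 3 a group) in hypoxia against normoxia (interval -0.65 to -0.10, limma adjusted p = 0.025) and rose by 0.55 ± 0.12 with quercetin against hypoxia (interval 0.27 to 0.82, adjusted p = 0.0047), a 1.46-fold rise that was 0.38 (adjusted p = 0.26) with normexp correction. Quercetin against normoxia gave 0.18 ± 0.12 (interval -0.10 to 0.45, adjusted p = 0.27), and -0.23 (adjusted p = 0.17) with spike-in scaling. The fall in hypoxia missed the threshold without normoxia replicate 1 or 3 or without any single hypoxia array (adjusted p = 0.053 to 0.079), with no filter (0.061), in a fit of the 2 groups alone (0.051) and with normexp correction (-0.28, 0.42), and it was -0.51 (adjusted p = 0.00085) without normoxia replicate 2, the low normoxia array. With slide as a block, so that normoxia replicate 3 is the only direct reference of the hypoxia arrays, it was -0.56 (adjusted p = 0.02).

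Smooth muscle cells and pericytes are known to carry Pdgfrb. Summed smooth muscle markers were 137 to 208 times the 75th percentile on normoxia arrays, 321 to 343 on hypoxia arrays and 95.3 to 113 on quercetin arrays. Most of this signal came from Tagln. Of 7 measured markers, 5 rose and 0 fell in hypoxia, and Smtn and Lmod1 did not pass. With quercetin against hypoxia 0 rose and 6 fell. Over all genes, 35.3% rose and 28.9% fell in hypoxia, and 26.9% rose and 31.5% fell with quercetin against hypoxia. Pericyte markers summed to 102 to 113, 143 to 153 and 123 to 128. Among them Kcnj8, a potassium channel subunit of pericytes, was at least 2.09-fold lower in hypoxia than in normoxia (limma adjusted p = 4e-05) and at least 5.28-fold higher with quercetin than in hypoxia (adjusted p = 4.8e-06), its hypoxia signal being well above background on 0 of 3 arrays. Notch3 went the other way, with 0.62 in hypoxia (limma adjusted p = 0.00073) and -0.29 with quercetin against hypoxia (adjusted p = 0.034). Cspg4 and Abcc9 passed in neither of these comparisons. Rgs5 was well above background only on 2 normoxia arrays and Higd1b on none. The part of these markers in the receptor levels was not tested.

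**Figure D2:**
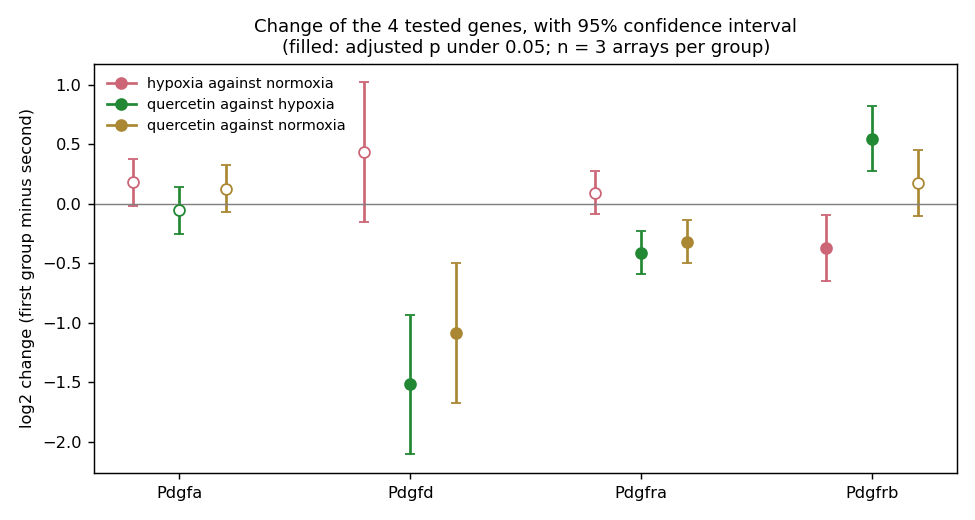
Change of the 4 tested PDGF genes in each comparison (vertical axis, log2 units) with its 95% confidence interval, filled where the limma adjusted p was under 0.05, n = 3 arrays a group. Pdgfd and Pdgfra lay below 0 in both quercetin comparisons, Pdgfrb changed sign between hypoxia and quercetin, and the Pdgfa and Pdgfra changes in hypoxia, near 0 here, were -0.33 and -0.41 with spike-in scaling.

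The balance of the receptors was taken on each array as the Pdgfra level minus the Pdgfrb level, a difference that a constant shift of a whole array leaves as it is. It was -1.18, -0.93 and -1.41 in normoxia, -0.65, -0.82 and -0.66 in hypoxia and -1.68, -1.64 and -1.69 with quercetin. The 3 groups did not overlap, and the balance lay most toward Pdgfra in hypoxia and most toward Pdgfrb with quercetin. The means were -1.17 ± 0.24, -0.71 ± 0.09 and -1.67 ± 0.03 (SD, n = 3), which differed by 0.47 for hypoxia against normoxia, -0.96 for quercetin against hypoxia and -0.50 for quercetin against normoxia. The exact two-sided permutation test gave p = 0.1 for each, the smallest value that 3 against 3 arrays allow, and 0.1 after adjustment over the 3 comparisons. Since the value 0 depends on the brightness of both probes, it does not mark equal amounts.

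**Figure D3:**
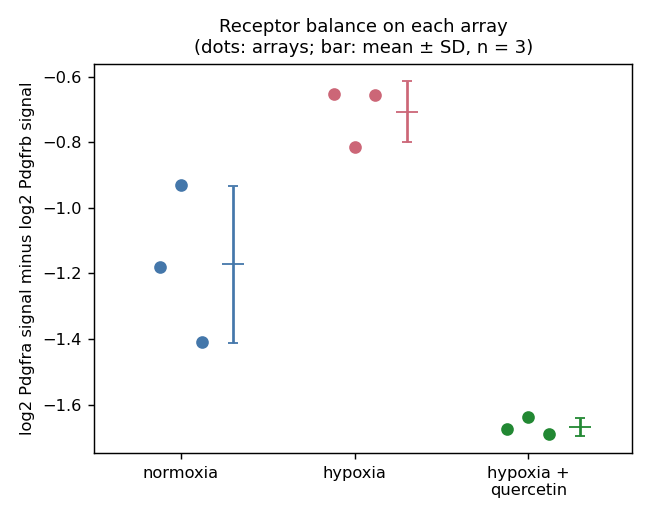
Receptor balance (vertical axis, log2 Pdgfra signal minus log2 Pdgfrb signal) on each array, with the mean and SD of each group beside the points, n = 3. The hypoxia arrays lie between -0.82 and -0.65 and the quercetin arrays between -1.69 and -1.64, with normoxia in between and wider.

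The counts were then set against all genes. Of the 22105 entries tested, which are called genes here, 11854 had a symbol and the others kept the name in the files. Some of the others may repeat a gene. The 4 tested genes were well above background on all 9 arrays, so none was admitted through a single group. In hypoxia against normoxia 1 of the 4 passed, Pdgfrb, in the lower direction, while 28.9% of the 22105 genes tested passed as lower and 35.3% as higher, 64.2% in all. Groups did not overlap for 2 of the 4, Pdgfa and Pdgfrb, against 71.7% of all genes. Larger absolute changes than those of Pdgfa, Pdgfd, Pdgfra and Pdgfrb were seen in 83.4%, 61.2%, 91.6% and 66.8% of genes. The median of all genes was 0.10, and spike-in scaling moved it to -0.40, with 2664 genes then higher and 10762 lower in place of 7802 and 6389, and with Pdgfa, Pdgfra and Pdgfrb all lower.

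In quercetin against hypoxia 2 of the 4 passed as lower (31.5% of all genes) and 1 as higher (26.9%), so 3 of 4 passed where 58.4% of all genes did. The groups did not overlap for the same 3, against 71.1% of genes. A larger absolute change than that of Pdgfd was seen in 8.75% of genes, than that of Pdgfra in 58.6% and than that of Pdgfrb in 47.2%. The median of all genes was -0.08, and 0.02 with spike-in scaling, under which 6387 genes were higher and 5686 lower in place of 5937 and 6970. In quercetin against normoxia Pdgfd and Pdgfra passed as lower (21.3% of genes) and 0 as higher (23%), where 44.3% of genes passed in all. Groups did not overlap for those 2, against 53.6% of genes. Larger absolute changes were seen in 11.6% of genes for Pdgfd and 55.6% for Pdgfra. The median of all genes was 0.04, and -0.37 with spike-in scaling, with 1640 genes then higher and 9832 lower in place of 5085 and 4707. The 3 comparisons share arrays pairwise, so their values stand side by side and are not independent of each other.

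The lists of genes around the family had 12, 39, 18, 20, 13, 12 and 5 measured genes, in the order given below. Egr1 and Klf5 stand both among the early genes and among the transcription factors, and were counted once here. The lists held 39 genes that passed as higher and 32 as lower in hypoxia. They held 24 and 45 with quercetin against hypoxia and 19 and 37 with quercetin against normoxia. Over all genes, the shares that passed as higher and lower were 35.3% and 28.9% in hypoxia. They were 26.9% and 31.5% with quercetin against hypoxia and 23% and 21.3% with quercetin against normoxia. The counts of each list below are to be read beside these shares, and no set test was run. With spike-in scaling the lists gave 9 and 61 in hypoxia and 4 and 67 with quercetin against normoxia. Of the genes of these lists that are named in the following paragraphs and passed, leaving aside Plat, which was not recomputed, Sparc alone changed sign under median, quantile or spike-in scaling. In hypoxia, spike-in scaling left Sh2b3 at 0.24, Kit at 0.38, Csf1r at 0.20 and Pdgfrl at 0.36, and quantile normalisation left Tagln at 0.36, none past the threshold.

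Genes that release or bind the ligands moved in both directions. In hypoxia against normoxia 7 of 12 measured genes of 14 listed rose and 4 fell, with a median of 0.57. Pcsk6, a convertase of growth factor precursors, rose by 1.82 ± 0.11 (SE, limma adjusted p = 6.3e-06), while the convertases Pcsk7 and Furin changed by -1.77 and -1.15 (adjusted p = 1.1e-05 and 3e-05). Itgav, the integrin alpha v subunit that pairs with beta 3 beside PDGF receptor beta, rose by 1.01 (adjusted p = 4.9e-05). Plat, the tissue plasminogen activator that cuts the latent C chain, rose by 1.39 (adjusted p = 0.00015). When quercetin was set against hypoxia, 3 of the 12 rose and 7 fell, with a median of -0.32. Pcsk7 rose by 2.77 (adjusted p = 2.7e-06) and Furin by 0.90, Pcsk6 fell by 1.83, and A2m, a protease inhibitor (alpha-2-macroglobulin) that also binds PDGF, fell by 1.52. Against normoxia 4 rose and 1 fell, with a median of 0.08. Pcsk7 was up by 1.00, Itgb3 by 1.19 and Sparc, a matrix protein that binds the B chain, by 0.34, and A2m fell by 0.88. With spike-in scaling Sparc became -0.072 and Itgb3 0.78 (adjusted p = 0.065). Plau and St14, whose products can cut the latent D chain, had probes that did not pass the filter.

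Adaptors and effectors that dock at activated PDGF receptors moved both ways in hypoxia, as genes at large did. Of 39 measured genes of 40 listed, 12 rose and 10 fell, beside 35.3% and 28.9% of all genes. Their median was 0.09, near that of all genes. Ptpn11, the phosphatase SHP2, fell by 0.97 ± 0.09 (SE, limma adjusted p = 3.8e-05), and the kinase gene Akt1 fell by 1.51 ± 0.15. Mapk3, the MAP kinase ERK1, rose by 0.82. Quercetin against hypoxia gave 9 rises and 15 falls, with a median of -0.15. Src, a kinase that binds the receptors, fell by 1.01 ± 0.09 (adjusted p = 4.5e-05), and Stat5b, Jak2 and Braf changed by -1.41, -1.06 and -0.82. Against normoxia 6 rose and 13 fell, with a median of -0.19, led by Stat5a with -1.40, Braf with -0.89, Jak2 with -0.88 and Prkca, a protein kinase C, with -1.40.

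Genes that restrain the receptors or their pathway showed 3 rises and 4 falls among 18 measured genes of 20 in hypoxia, with a median of 0.01. Rasa1, the Ras GTPase activating protein that docks at PDGF receptor beta, fell by 0.91 and the feedback inhibitor Spry2 fell by 1.29, while the MAP kinase phosphatase Dusp1 rose by 1.03 and the adaptor Sh2b3 by 0.75 (limma adjusted p = 7.6e-05 to 0.0005 for these 4). Under quercetin, 7 rose and 2 fell against hypoxia, with a median of 0.27. Sh2b3 fell by 1.20 (adjusted p = 3.8e-05), Spry2 rose by 0.99 and Spry4 and Spry1 rose by 1.32 and 1.05. The last rises hung on the probe, since other probes of Spry4 and Spry1 gave 0.09 and -1.15 (adjusted p = 0.73 and 0.49). Against normoxia 5 rose and 3 fell, with Dusp1 up by 1.64, Spry4 up by 1.04, Rasa1 at -0.57 and Dusp6 at -1.54.

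Genes that growth factors switch on early moved both ways in hypoxia, where 6 of 20 rose and 7 fell, with a median of 0.18. Egr2, Myc and Fos, all transcription factors, changed by -1.54, -1.90 and -1.85 and Ccl2, a chemokine, by -2.09 (limma adjusted p = 2.7e-05 to 0.00035). Against hypoxia, 3 rose and 8 fell with quercetin, with a median of -0.49. Plaur, the urokinase receptor, changed by -1.47, Junb by -1.03 and Jun by -0.83, whereas Myc rose by 1.38. Against normoxia 1 rose and 10 fell, with a median of -0.54. The changes were -2.32 for Egr2, -2.62 for Ccl2, -2.22 for Egr1 and -1.28 for Plaur (adjusted p = 1.3e-05 to 0.00023).

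Transcription factors tied in the literature to PDGF ligand and receptor genes were mostly lower in hypoxia. Of 13 measured genes of 16, 2 rose and 7 fell, with a median of -0.59. Srf changed by -0.94, Nfkb1 by -0.73, Egr1, which can bind human ligand promoters, by -1.66, and Hif1a, the oxygen-regulated subunit of hypoxia-inducible factor (HIF), by -0.67 (limma adjusted p = 3.3e-05 to 0.0014). In the next comparison, quercetin against hypoxia, 1 rose and 4 fell. Srf rose by 0.82, and the changes of Nfkb1, Epas1, which encodes another HIF subunit, and Rela were -0.56, -1.14 and -0.69. Against normoxia 0 rose and 6 fell, with Nfkb1 at -1.28 and Epas1 at -1.72.

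Contractile genes, which the BB ligand is known to repress in smooth muscle, had 12 measured genes of 14. In hypoxia 6 rose and 0 fell, the other 6 missed the threshold, and the median change was 0.45. Des (desmin) rose by 3.39 ± 0.16 (SE, limma adjusted p = 2.6e-06), Cnn1 by 1.33, Tagln by 1.03 and Myocd, the coactivator of Srf, by 0.95. The same list had 0 rises, 7 falls and 5 genes that did not pass with quercetin against hypoxia, and a median of -0.87. Cnn1 changed by -2.50, Tagln by -1.68, Des by -1.31 and Myh11, smooth muscle myosin, by -1.45 (adjusted p = 4.7e-06 to 0.0002). Against normoxia 3 rose and 4 fell, with Des up by 2.07 and Cnn1, Tagln and Mylk at -1.17, -0.66 and -1.66. These genes overlap the smooth muscle markers given beside Pdgfrb.

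Relatives of the receptors, the other class III tyrosine kinases and their ligands, had 5 measured genes of 8. In hypoxia Kitlg, the ligand of the receptor Kit, fell by 2.78 (limma adjusted p = 7e-05), and Pdgfrl, a PDGF receptor-like protein without a kinase, rose by 0.87, Csf1r by 0.70 and Kit by 0.88. The Kit rise passed under 14 of 24 alternative settings, and Kit was well above background on 2 of 3 hypoxia arrays. Under quercetin Kitlg rose by 2.03 against hypoxia, Pdgfrl and Csf1r changed by -1.66 and -0.51, and Kit gave -0.61 (adjusted p = 0.096). The Csf1r fall passed under 17 of 23 alternative settings and was -0.41 (adjusted p = 0.058) with spike-in scaling. Against normoxia Pdgfrl fell by 0.79, and with spike-in scaling Kitlg at -1.15 (adjusted p = 0.0072) and Csf1 at -0.72 (adjusted p = 0.0078) passed too. A second Pdgfrl probe gave 0.73, -1.38 and -0.66 in the 3 comparisons.

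**Figure D4:**
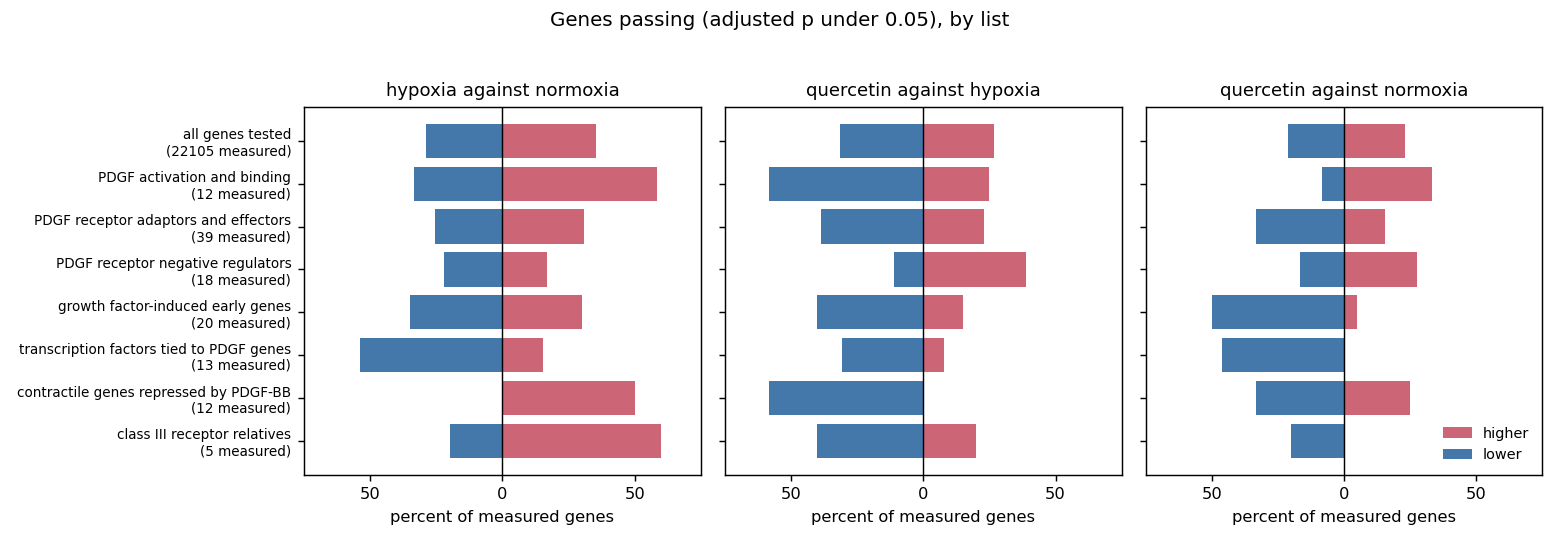
Percent of measured genes that passed as higher (red, to the right) or lower (blue, to the left) in each comparison, for all genes tested and for each list around the PDGF family. Contractile genes had 6 higher and 0 lower in hypoxia and 0 higher and 7 lower with quercetin against hypoxia.

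The genes whose patterns over the 9 arrays lay nearest to each tested member were found by the root mean square (RMS) difference between centred levels, among 11853 other named genes. For Pdgfd they were Plekha5 (0.162), Acvrl1 (0.178), a receptor of the BMP family, and Cacna1g (0.19), a T-type calcium channel, where Pdgfd itself varied by an RMS of 0.701. Their changes with quercetin against hypoxia were -1.36, -1.74 and -1.54, beside -1.52 for Pdgfd. For Pdgfrb, with an RMS of 0.256, they were Nvl and Zfp318 (0.061 each) and Wapl (0.068), the cohesin release factor. For Pdgfra, with an RMS of 0.183, they were Dnlz (0.049), Ndufb11 (0.051), a subunit of respiratory complex I, and Pnrc2 (0.053). For Pdgfa, with an RMS of 0.097, they were Tnrc6b (0.048), Ryk (0.05) and Ubr4 (0.058). None of these lists held another PDGF gene, and likeness over 9 arrays in 3 groups is a description only.

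Promoters were read for 5 of the 6 genes, as the 250 bases before the gene start in the RefSeq table of rat build GRCr8, to show where short motifs tied to hypoxia fall. The GC content was 60.8% for Pdgfa, 63.6% for Pdgfb, 56% for Pdgfc, 61.6% for Pdgfd and 47.2% for Pdgfra, beside a median of 52% over 27457 genes. The motifs were searched on both strands, and positions count back from -1, the base before the start. The HIF core GCGTG occurred in 27.2% of all promoters and, among the PDGF genes, in Pdgfb alone, at -214 and -18. Its other form, ACGTG, occurred in 16.9% of promoters and, among these genes, in Pdgfd alone, at -62. The SP1 core GGGCGG, in 32.4% of promoters, was in Pdgfa at -187, Pdgfb at -207 and Pdgfd at -114. The EGR1 motifs GCGTGGGCG, which starts with the HIF core, and GCGGGGGCG were in 0.514% and 2.49% of promoters and in none of the 5 windows. The promoters of Pdgfb (chr7:113438344-113438593, minus strand) and Pdgfd (chr8:11773258-11773507, plus strand) are shown because they hold the HIF cores, which all lie on the reverse strand and appear in capitals as CACGC and CACGT.
Pdgfb: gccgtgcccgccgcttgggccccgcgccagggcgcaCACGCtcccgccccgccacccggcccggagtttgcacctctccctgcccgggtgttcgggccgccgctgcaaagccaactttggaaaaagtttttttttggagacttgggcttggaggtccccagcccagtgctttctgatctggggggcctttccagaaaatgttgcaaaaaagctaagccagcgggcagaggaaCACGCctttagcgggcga
Pdgfd: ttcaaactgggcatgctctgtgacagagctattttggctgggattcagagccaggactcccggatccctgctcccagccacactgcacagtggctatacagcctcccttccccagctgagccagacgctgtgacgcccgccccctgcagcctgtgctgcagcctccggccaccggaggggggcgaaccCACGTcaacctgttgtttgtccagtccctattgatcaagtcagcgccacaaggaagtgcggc
A match of letters is neither a bound site nor a cause, and a window without one says nothing of the factor.

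**Figure D5:**
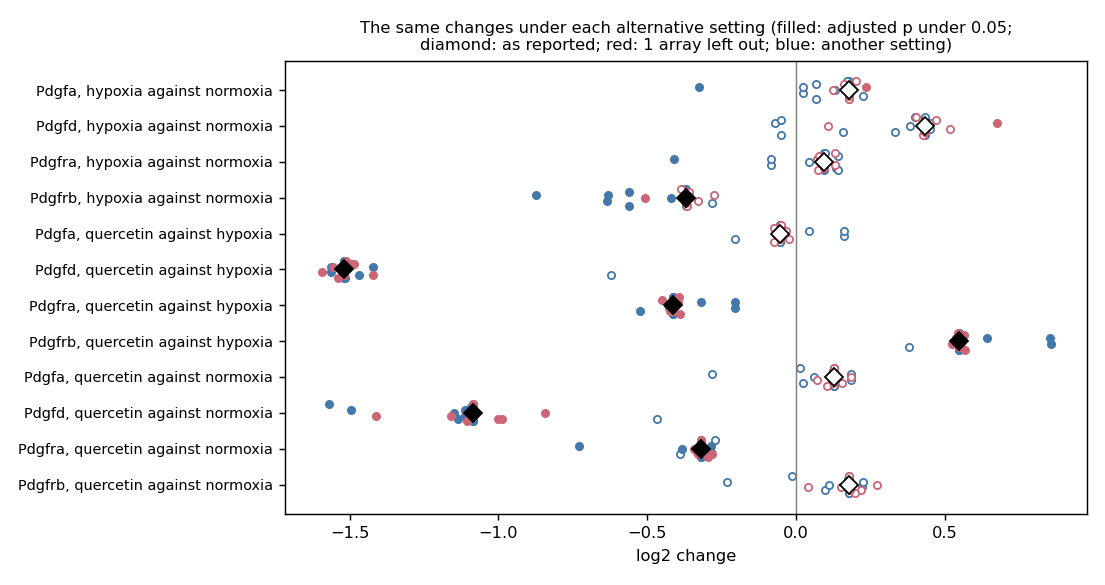
Change of the 4 tested genes in each comparison (horizontal axis, log2 units) as reported (diamonds), with 1 array left out (red) and under each other setting (blue), filled where the adjusted p was under 0.05. Pdgfra with quercetin against hypoxia was filled throughout (-0.52 to -0.20), whereas Pdgfrb in hypoxia was filled under some settings and open under others (-0.88 to -0.28).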

How the data were processed

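RNA of 9 rat PASMC samples was measured on 1-colour Agilent rat arrays, 3 each in normoxia, hypoxia and hypoxia with quercetin. The deposited scanner files hold the processed signal, an intensity after background subtraction by Agilent Feature Extraction 10.7.3.1, per the file headers. The labels' protocols name a miRNA labelling kit, whereas the file headers name a gene expression protocol. The authors' deposited table holds log2 values whose scale and centring are not given in the sources used here. Its first array had a median of 5.71, and r with the scanner values was 0.9913 to 0.9998 over the arrays. Intensities were taken to log2, the 75th percentile of each array was subtracted, control and outlier spots were left out, and spots of a probe were averaged. A probe was kept where some group had it well above background on each of its 3 arrays (26656 of 41012, 65%), and each gene was read from its brightest kept probe. An accession named 18360 probes, the symbol 3000 and a synonym 390 in a RefSeq gene table of build GRCr8, and 19262 kept the name in the files. All 9 arrays entered a limma 3.58.1 fit of group means (R 4.3.3, 6 residual degrees of freedom), with Benjamini-Hochberg adjustment over 22105 genes and a threshold of 0.05. The number of arrays limits the precision. The fit was tested on simulated data. No 2 arrays held identical values. Deviations of same-numbered samples from their group means correlated at -0.267 to 0.019, and those of differently numbered samples at -0.093 to 0.25. With 3 arrays a group, whose deviations sum to 0, this cannot show whether samples were paired. The main fit used no pairing. The named genes were all family members, up to 4 genes with the smallest adjusted p per list and comparison, the 3 nearest patterns per member and markers beside a result, and Plat, Plau and St14 were added after their values were seen. Some genes that this rule names are not reported here. The members and lists were chosen with earlier results of these data known. Alternatives covered background correction, scaling, the filter, probes, slide, scan day, replicate number and leaving out each array.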

Additional observations from a re-analysis of the deposited data

How the results depend on the processing

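Pdgfra with quercetin against hypoxia passed under all 24 alternatives run, and Pdgfd and Pdgfrb in that comparison under 23 of 24. The exception was normexp correction, with an offset of 50, which gave Pdgfd -0.62 (adjusted p = 0.098) and Pdgfrb 0.38 (0.26). It also gave Pdgfrb -0.28 (0.42) in hypoxia, Pdgfd -0.47 (0.28) and Pdgfra -0.39 (0.17) with quercetin against normoxia, Pdgfb 0.20, 0.22 (reversed) and 0.42 in the order hypoxia against normoxia, quercetin against hypoxia and quercetin against normoxia, Pdgfc -0.23 and 0.52 in the first 2, and Csf1r 0.13 with quercetin against hypoxia. Its counts were 0 members lower in hypoxia, 0 higher and 1 lower with quercetin against hypoxia and 0 lower against normoxia; 25, 13 and 4 pathway genes higher and 23 lower in the last; and 6719, 6154 and 3169 genes passing in all. Spike-in scaling gave Pdgfa -0.33 and Pdgfra -0.41 in hypoxia, Pdgfb 1.55 in hypoxia and 0.76 against normoxia, Sparc -0.072 against normoxia, 3 members lower in hypoxia, and 9 pathway genes higher and 61 lower in hypoxia and 4 and 67 against normoxia, in place of 39 and 32, and 19 and 37. For both settings the cause was not tested. With no filter, Pdgfrb in hypoxia had an adjusted p of 0.061 at the same change of -0.37 (0 members lower), and 10 pathway genes were higher against normoxia. Fits of only the 2 groups compared, with fewer samples, gave -0.37 (0.051), 0 and 12. Quantile normalisation and the deposited table each gave a receptor balance of -1.06 for quercetin against hypoxia. Averaging probes gave Spry1 -0.048 with quercetin against hypoxia. Slide as a fixed block and scan day as a block each left 25 pathway genes higher in hypoxia, and scan day gave Pdgfra -0.27 (0.11), 1 member lower, 8 pathway genes higher and 24 lower, and 5813 genes passing against normoxia. Slide could not be fitted as a fixed block for quercetin, which fills its slide.

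Leaving out 1 array at a time moved Pdgfrb in hypoxia between -0.51 and -0.28, Pdgfa between 0.12 and 0.24 and Pdgfd between 0.11 and 0.68, with 0 to 2 members higher and 0 to 1 lower, and pathway genes higher against normoxia between 10 and 21, the fewest without quercetin replicate 3 and 12 without quercetin replicate 1. With the replicate number as a block no member's call changed: Pdgfrb in hypoxia kept -0.37 (adjusted p = 0.042), Pdgfra -0.41 (0.011) with quercetin against hypoxia and -0.32 (0.038) against normoxia, and 13199, 11967 and 8511 genes passed. Chosen after seeing the data, a filter of 2 arrays of a group brought Pdgfb into the test with adjusted p-values of 6.8e-05, 0.0055 and 0.0021, and normoxia replicate 3 alone as the reference gave Pdgfb 2.14 and 1.26. The signals of Pdgfb and Pdgfc, close to background, limit what can be said of them.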

Other observations

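Markers outside the PDGF family also differed between the groups, and those named here were chosen after their values were seen. The simple keratins Krt18, Krt7 and Krt8, which mark epithelium but are also known from cultured smooth muscle, rose in hypoxia by 4.93, 3.12 and 2.15 and changed by -3.22, -2.39 and -1.48 with quercetin against hypoxia (limma adjusted p = 4.3e-06 to 0.00089), while Epcam and Cdh1 were well above background on no array. Of the fibroblast markers, Dcn (decorin), Lum (lumican) and Fap changed by -4.24, -3.63 and -1.45 in hypoxia and by -4.41, -3.14 and -3.73 with quercetin against normoxia. Dpt (dermatopontin) changed by -2.91 in hypoxia, while the collagens Col1a1 and Col3a1 rose by 0.73 and 0.53 (adjusted p = 0.001 and 0.00084) and S100a4 gave 0.088 (adjusted p = 0.77). With quercetin against normoxia Col1a1 rose by 0.46 (adjusted p = 0.016). Lyz2 (lysozyme), a macrophage marker, rose by 4.10 in hypoxia and changed by -1.65 with quercetin against hypoxia (limma adjusted p = 0.005). Cd68, another leukocyte marker, went the other way, with -0.276 in hypoxia (adjusted p = 0.1) and a rise with quercetin against hypoxia (adjusted p = 4.3e-05). Of the 5 measured leukocyte markers, 3 rose and 0 fell in hypoxia. With quercetin against hypoxia 1 rose and 3 fell. The markers named in this section were not recomputed under other scalings.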
